A study of Mus musculus with 6 samples.

Results

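A set of 10 Eph receptor and ephrin genes was followed in single nuclei of mouse jejunal organoids. The genes were chosen by name and matched to the Ensembl identifiers of the files, and 10 of 10 were found among the 31319 genes. The family holds 22 genes in these files, so 12 other Eph and ephrin genes served as a comparison list. The organoids were made from crypts of C57BL/6 mice labelled as 8 to 12 weeks old, and freshly passaged crypts were then grown in medium conditioned by mouse embryonic fibroblasts (MEFs). According to the study's methods, the MEFs of the control medium (QCM) had been made quiescent in low serum, and those of the other medium (SCM) senescent with X-rays or doxorubicin, and the labels do not say which of these a sample received. Both media were collected without serum, and no gene of the organoids was altered. Each medium had 3 samples, numbered 1 to 3, and no sample was grown without conditioned medium. The deposited table of nuclei names the first replicate of both media 1b, and the sources used here do not say whether these are repeats of another library. The paper states in general that n counts biological replicates, each value standing for a mouse unless said otherwise, and gives no n for these samples. The labels do not say whether the samples came from separate mice, so p-values between the media measure only the spread between these samples, which may be technical. Classes of nuclei were compared with sample as a block. Those p-values measure only how the class difference varies between these samples, which may be technical too.

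Eph receptors are tyrosine kinases of the cell surface, and their ligands, the ephrins, are held on the surface of neighbouring cells. Ephrin-A ligands have a lipid anchor and ephrin-B ligands span the membrane, so that contact can signal into both cells, often as repulsion. In the intestine, Ephb2 and Ephb3 are Wnt target genes with high levels at the crypt base, while Efnb1 and Efnb2 are known from the cells toward the villus, and this opposition keeps stem cells, Paneth cells and differentiating cells in their places.

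The 6 libraries held 38154 nuclei, between 430 in SCM replicate 1 and 10833 in SCM replicate 3, and from 4071926 to 41035733 unique molecular identifiers (UMIs, which count RNA molecules once each). Of the 430 barcodes of SCM replicate 1, 175 (40.7%) also occurred in QCM replicate 1, against 0 to 36 shared barcodes in every other pair of libraries. Nuclei with the same barcode in these libraries were no more alike than nuclei with different barcodes (median Pearson r of 0.406 and 0.408), and 40 of the 175 pairs lay in the same cluster. For the media over all nuclei and the Lgr5 split, fits were repeated without these nuclei of SCM replicate 1. Those of QCM replicate 1 stayed in, and the other comparisons were not repeated. Ribosomal protein genes took 4.96% to 14.2% of the UMIs in the QCM samples and 2.64% to 7.30% in the SCM samples. Markers of cells outside the epithelium were low: the summed levels were 2.46 to 8.63 counts per 1000000 (CPM) for fibroblast markers, 4.61 to 15.6 for endothelial, 0.982 to 4.07 for immune and 7.99 to 11.8 for neural markers.

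The deposited table assigned each nucleus to 1 of 15 clusters, numbered 0 to 14, without names. Marker genes gave names to 6 of them. The nuclei of cluster 8 were enterocyte-like (8 of 10 markers past the limits), those of cluster 11 tuft-like (7 of 8), those of clusters 9 (10 of 10) and 10 (6 of 10) enteroendocrine-like, and those of cluster 6 carried 7 of 8 goblet and 3 of 8 Paneth markers. Cluster 7 is called fetal-like from 7 of 9 fetal markers, among them Clu, Ly6a and Anxa1, although its 10 leading genes, such as Syt16, Cdh13 and Fn1, held none of the 9. Cluster 1 passed the limits for 5 of 10 enterocyte, 3 of 8 goblet and 3 of 8 Paneth markers and was left unnamed, since these mark 3 different classes. Cluster 14 held nuclei of very high depth, with a median of 83238 UMIs in QCM replicate 1, and doublets were not removed here. Since the clusters were made from the expression of these nuclei, the levels by cluster are a description and were not tested. RNA free in the droplets was not estimated, so UMIs counted in a cluster need not all come from its own nuclei.

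**Figure D1:**
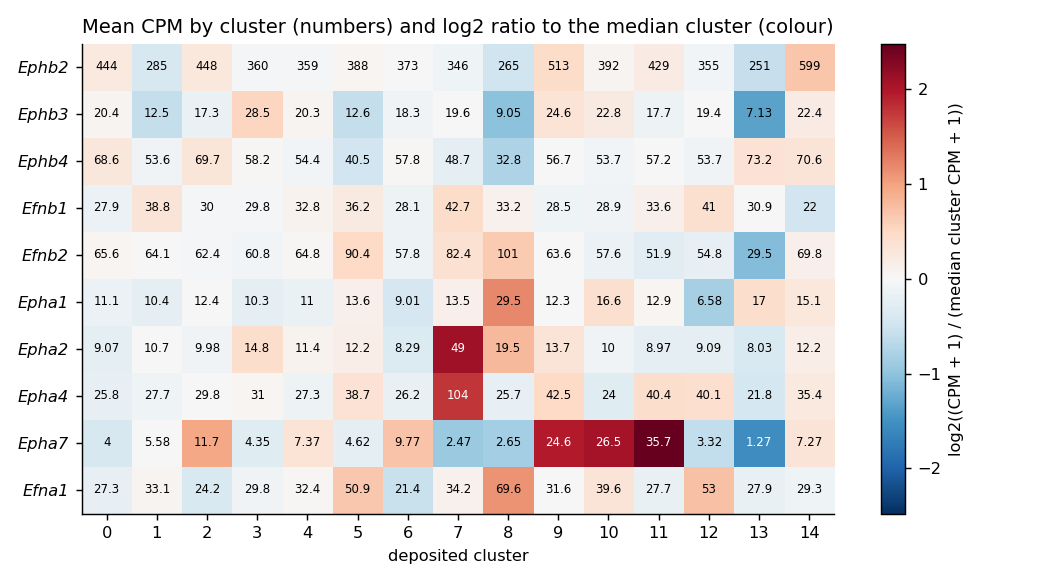
Mean level of each member over the samples with at least 10 nuclei of a cluster, for the deposited clusters 0 to 14. Numbers are CPM, and colours give the log2 ratio of CPM + 1 to that of the median cluster. Epha2 and Epha4 stand out in cluster 7, Epha7 in clusters 9, 10 and 11, and Epha1 and Efna1 in cluster 8, while the EphB receptors differ less between clusters.

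Among the EphB receptors, Ephb2 (ENSMUSG00000028664, chr4:136647539-136835988, minus strand, GRCm38) was found in every cluster. Its mean level ran from 251 ± 97.7 CPM (SD, n = 4) in cluster 13 and 265 ± 46.0 CPM (n = 6) in the enterocyte-like cluster 8 to 513 ± 111 CPM (n = 5) in the enteroendocrine-like cluster 9 and 599 ± 96.3 CPM (n = 3) in the deep nuclei of cluster 14. Neighbouring clusters in this order overlapped in their sample values throughout. In cluster 8, Ephb2 lay below the other nuclei of the sample in 6 of 6 samples, at 0.522 to 0.926 times their level. In cluster 9 it lay above them in 6 of 6 samples, at 1.23 to 1.67 times, although SCM replicate 1 had only 3 nuclei there.

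Ephb3 (ENSMUSG00000005958, chr16:21204755-21223305, plus strand), whose product is also known for placing Paneth cells at the crypt base, was highest in the unnamed cluster 3, at 28.5 ± 20.8 CPM (n = 6), and low in cluster 8, at 9.05 ± 5.33 CPM (n = 6), and in cluster 13, at 7.13 ± 6.19 CPM (n = 4, from 3 UMIs in all). Cluster 3 ranged from 12.8 to 69.0 CPM, so that its place at the top rests on wide spread. Ephb4 (ENSMUSG00000029710, chr5:137350109-137378669, plus strand), best known as the receptor of ephrin-B2 in blood vessels, was also lowest in cluster 8, at 32.8 ± 15.1 CPM (n = 6), and reached 68.6 ± 17.4 CPM in cluster 0 and 69.7 ± 18.8 CPM in cluster 2 (n = 6 each). All 3 EphB receptors thus had their lowest or second lowest mean in the enterocyte-like cluster.

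The ephrin-B ligands did not share that order. Efnb2 (ENSMUSG00000001300, chr8:8617434-8661242, minus strand) was highest in the enterocyte-like cluster 8, at 101 ± 37.3 CPM, followed by cluster 5 at 90.4 ± 27.5 CPM and the fetal-like cluster 7 at 82.4 ± 37.6 CPM (n = 6 each). It lay above the other nuclei of the sample in cluster 8 in 6 of 6 samples, by 1.26 to 1.95 times. Efnb1 (ENSMUSG00000031217, chrX:99136130-99148991, plus strand) spanned only 22.0 ± 8.83 CPM in cluster 14 (n = 3) to 42.7 ± 17.5 CPM in cluster 7 (n = 6), and in cluster 8 it stood at 33.2 CPM. Per sample, cluster 8 held 45.1, 36.4 and 43.5 CPM in QCM replicates 1, 2 and 3. In SCM replicates 1, 2 and 3 it held 0 (from 11 nuclei), 43.8 and 30.6 CPM. The other nuclei held 41.5, 26.3 and 37.1 CPM in QCM and 33.2, 29.6 and 32.1 CPM in SCM.

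The EphA receptors were the members with the sharpest differences between clusters. Epha4 (ENSMUSG00000026235, chr1:77367185-77515088, minus strand), a receptor that binds ligands of both the A and the B class, averaged 104 ± 84.6 CPM (n = 6) in the fetal-like cluster 7, 3.48 times its median cluster. Cluster 9, the next in order, had 42.5 ± 23.0 CPM (n = 5), within the range of cluster 7. Per sample, cluster 7 held 49.2, 113 and 63.1 CPM in QCM replicates 1, 2 and 3, and 19.5, 258 and 119 CPM in SCM replicates 1, 2 and 3. In the other nuclei of the same samples Epha4 stood at 13.2, 27.3 and 23.1 CPM and at 31.6, 50.0 and 35.1 CPM. Cluster 7 was thus above the rest of the library in 5 of 6 samples, by 2.73 to 5.16 times, and below it in SCM replicate 1, where 17 nuclei gave 3 UMIs of Epha4.

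Epha2 (ENSMUSG00000006445, chr4:141301240-141329384, plus strand), an epithelial receptor best known for binding ephrin-A1, was highest in the same cluster, with 49.0 ± 27.6 CPM (n = 6) in cluster 7, 4.57 times its median cluster, and 19.5 ± 8.59 CPM in cluster 8, the next. Its values in cluster 7 were 29.1, 66.6 and 42.1 CPM in the QCM samples and 13.0, 90.8 and 52.3 CPM in the SCM samples, with 8.46 to 14.4 CPM in the other nuclei. The excess over the other nuclei was 3.29 to 7.45 times in 5 samples and 1.04 times in SCM replicate 1, from 2 UMIs.

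A few nuclei carried much of these sums in QCM replicate 1. Of the 145 nuclei of cluster 7 there, the 3 with the most Epha2 UMIs gave 37 of its 42. The 3 with the most Epha4 UMIs, which may be other nuclei, gave 48 of its 71. With each nucleus weighted equally, an alternative chosen after seeing the data, Epha4 in cluster 7 was 19.6, 62.9 and 46.8 CPM in the QCM samples and 40.3, 187 and 67.4 CPM in the SCM samples. It then lay above the other nuclei in 6 of 6 samples, against 11.2 to 25.1 CPM there in QCM and 23.5 to 52.3 CPM in SCM. In SCM replicate 1 this rested on 3 UMIs of Epha4 in 17 nuclei, and the summed counts ran the other way (19.5 against 31.6 CPM). Epha2 weighted in this way was higher in cluster 7 in 4 of 6 samples, at 25.0 ± 22.0 CPM over the 6, and lower in both samples numbered 1. The excess of Epha4 in the fetal-like nuclei was seen with both weightings except in SCM replicate 1, and that of Epha2 depended more on the weighting.

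**Figure D2:**
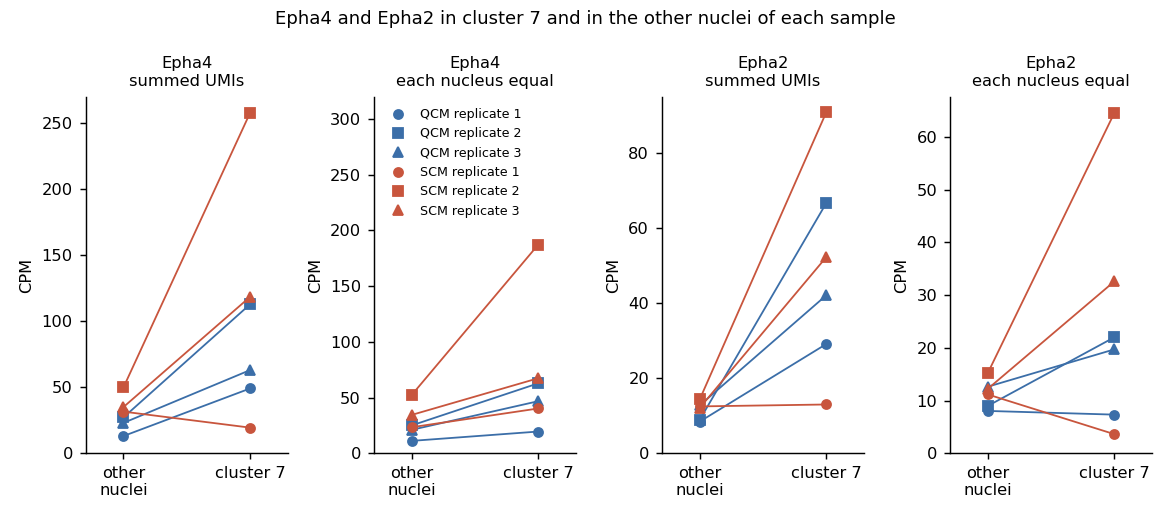
Level (CPM) of Epha4 and Epha2 in cluster 7 and in all other nuclei of the same sample, joined by a line per sample, from summed UMIs and with each nucleus weighted equally. SCM replicate 2 is the highest sample in cluster 7 in all 4 panels, and Epha4 with equal weights runs upward in 6 of 6 samples. In SCM replicate 1 the value of Epha4 in cluster 7 rests on 3 UMIs in 17 nuclei.

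The same cluster held the highest level of Efna5, one of the 12 other family genes, which encodes an ephrin-A ligand, at 11.2 ± 7.25 CPM (n = 6), and it was the top cluster for it in 4 of 6 samples. The promoters of Epha2 and Epha4 are shown as those of the listed EphA receptors with their highest mean in cluster 7, with that of Ephb2 beside them as a receptor of the crypt base. The ligand Efnb1 also had its highest mean in cluster 7, at 42.7 CPM, and its promoter is not printed. Each stretch is the 250 bases before the start of the gene in RefSeq on GRCm38.p6, written 5′ to 3′ on the strand of the gene. Capitals mark the letters GGAATG or their reverse complement, the core bound by TEAD factors, the DNA-binding partners of YAP.
Epha2, chr4:141300971-141301220, plus strand: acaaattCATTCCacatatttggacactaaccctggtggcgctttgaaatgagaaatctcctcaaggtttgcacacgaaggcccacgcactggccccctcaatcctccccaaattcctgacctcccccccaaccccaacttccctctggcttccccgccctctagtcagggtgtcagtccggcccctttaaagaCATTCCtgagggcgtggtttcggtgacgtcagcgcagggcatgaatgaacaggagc
Epha4, chr1:77515089-77515338, minus strand: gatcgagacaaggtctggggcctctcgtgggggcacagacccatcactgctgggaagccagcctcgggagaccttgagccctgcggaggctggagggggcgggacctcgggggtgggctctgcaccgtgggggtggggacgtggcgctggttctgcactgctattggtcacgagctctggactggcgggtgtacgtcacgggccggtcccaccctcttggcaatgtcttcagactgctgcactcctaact
Ephb2, chr4:136836013-136836262, minus strand: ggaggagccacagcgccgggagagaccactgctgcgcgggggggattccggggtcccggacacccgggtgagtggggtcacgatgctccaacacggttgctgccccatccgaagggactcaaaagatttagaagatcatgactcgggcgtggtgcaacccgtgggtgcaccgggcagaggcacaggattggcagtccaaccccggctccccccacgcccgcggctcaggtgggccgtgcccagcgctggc
In these windows, Epha2 held 2 matches, at positions 8 and 195 counted from 1 at the 5′ end, and Epha4 and Ephb2 held 0. Efnb2 and Epha1 had 1 match each, Efnb1 had 0, and 12.6% of all 32851 promoter windows of the same length had at least 1. Searched on both strands, the TCF/LEF letters CTTTGAT or CTTTGTT and the AP-1 letters TGANTCA were in none of the windows of the 10 members and in 8.06% and 6.75% of all windows. A match of letters is a description and no evidence of binding.

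The third pattern was that of Epha7 (ENSMUSG00000028289, chr4:28813131-28967499, plus strand), a receptor studied mainly in the nervous system. It was highest in the tuft-like cluster 11, at 35.7 ± 13.0 CPM, and in the enteroendocrine-like clusters 10 and 9, at 26.5 ± 12.7 and 24.6 ± 14.6 CPM (n = 5 each), 6.39, 4.74 and 4.40 times its median cluster. These rest on 51, 37 and 87 UMIs, and the 3 clusters overlapped with each other. Outside them Epha7 ranged from 1.27 CPM in cluster 13 to 11.7 CPM in cluster 2. In the tuft-like nuclei it was above the other nuclei in 6 of 6 samples, at 26.3, 53.8 and 41.6 CPM in QCM and 246, 20.8 and 35.8 CPM in SCM, where the first SCM value comes from 5 UMIs in 4 nuclei and does not enter the mean.

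Epha1 (ENSMUSG00000029859, chr6:42358487-42373268, minus strand) and the ligand Efna1 (ENSMUSG00000027954, chr3:89271733-89281142, minus strand) shared the enterocyte-like cluster 8 as their highest. Epha1 reached 29.5 ± 8.41 CPM there (n = 6), 2.38 times its median cluster, and was above the other nuclei in 6 of 6 samples, by 1.63 to 3.81 times. Efna1 reached 69.6 ± 21.4 CPM (n = 6), 2.20 times its median cluster, and was above the other nuclei in 6 of 6 samples, by 1.33 to 3.50 times. Cluster 12, at 53.0 ± 20.6 CPM (n = 5), and cluster 5, at 50.9 ± 16.8 CPM (n = 6), came next for Efna1 and overlapped with cluster 8.

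Over the 14 clusters with at least 100 nuclei, with counts summed over samples, Epha2 and Epha4 had a Pearson r of log2(CPM + 1) of 0.868. Computed within each sample instead, a check added after seeing the data, their r ran from -0.239 to 0.805 with a median of 0.389, and the median was 0.0299 with cluster 7 left out, so that their likeness rested on that cluster. Ephb2 and Ephb3 had an r of 0.670 over the sums and -0.032 to 0.748 within samples, with a median of 0.652, the highest of the 45 member pairs. Ephb4 and Efna1 ran against each other over the sums (r = -0.752, median within samples -0.395), as did Ephb2 and Efnb1 (r = -0.628, median within samples -0.295). The clusters share libraries and were drawn from the same nuclei, so these values only describe the courses in the map of levels by cluster. Over the same sums, among 10805 genes, those most like Epha4 were Pmepa1 (r = 0.945), Grip1 (0.936) and Cdh1 (0.932). The check within samples was run for pairs of members alone, and not for the genes most like a member. Grip1, a PDZ scaffold that binds ephrin-B ligands and some Eph receptors, is on the list of partners used here. Zmym4 (0.970) and Simc1 (0.968) were among the genes most like Ephb2. Ephb3 was most like Lancl1, Nin and Atp13a1 (0.891 to 0.922) and Ephb4 like Tfdp1, Pfas and Platr25 (0.918 to 0.933). For the ligands, Efnb1 was most like Serpinb6a, Efhd2 and Ctnnd1 (0.943 to 0.961), Efnb2 like Cnep1r1, Coro1c and Blcap (0.925 to 0.948) and Efna1 like Egln3, Ero1l and Hkdc1 (0.868 to 0.913). Epha1 was most like Crot, Acbd4 and Tmem106a (0.845 to 0.884), Epha2 like Ubash3b, Slc9a4 and Ano1 (0.921 to 0.941) and Epha7 like Kcnh8, Serpini1 and Cacna1a (0.871 to 0.905).

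To compare nuclei without the clusters, each was thinned to 1000 UMIs and called positive when at least 1 UMI of Lgr5, the marker of crypt base stem cells, remained. Of the 34975 nuclei that were deep enough, 10288 were positive, and 3179 shallower nuclei were left out (2366 of QCM and 813 of SCM). Between 12.7% of the nuclei (QCM replicate 1) and 49.1% (SCM replicate 2) were positive in a sample, with a median of 29.5%. The positive share was 13.5% in the enterocyte-like cluster 8 but 29.1% in the tuft-like cluster 11, which should lack Lgr5, against 29.4% over all nuclei. RNA free in the droplets was not estimated, so the split sets nuclei with a UMI of Lgr5 against nuclei without one, and not stem cells against other cells. In this comparison of sums per sample and class, edgeR called 9.18% of 14427 genes at an adjusted p under 0.05 (Benjamini-Hochberg), 2.61% as higher and 6.57% as lower in positive nuclei. This balance depended on the scaling, with 376 genes higher and 948 lower here, and 799 higher and 600 lower when library size alone was used. Of the 10 members 1 was called, Ephb2. It stood at 229, 425 and 359 CPM in the positive nuclei of QCM replicates 1, 2 and 3, against 171, 396 and 309 CPM in the negative ones. In SCM it stood at 433, 515 and 424 CPM against 300, 447 and 363 CPM. The positive class was higher in 6 of 6 samples, by 0.16 ± 0.05 on the log2 scale (SE, edgeR adjusted p = 0.0087). The call was kept with the shared barcodes left out of SCM replicate 1 alone (0.16, edgeR adjusted p = 0.00959). It was lost without SCM replicate 2 (edgeR adjusted p = 0.0713) and without SCM replicate 3 (0.0773). The 15 alternatives gave 0.129 to 0.21, with adjusted p (edgeR or DESeq2) between 0.000195 and 1.

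Ephb4 differed by 0.20 ± 0.07 in the same direction, in 5 of 6 samples, and its edgeR adjusted p was 0.0601. Ephb3 differed by 0.13 ± 0.14 (edgeR adjusted p = 0.675) and was higher in 3 of 6 samples. Without single samples its difference ran from 0.0559 to 0.199. On the other side, Efna1 was 27.2 ± 11.1 CPM in Lgr5-positive and 34.4 ± 7.92 CPM in Lgr5-negative nuclei (SD, n = 6) and lower in 6 of 6 samples, with an edgeR difference of -0.25 ± 0.10 and an adjusted p of 0.0871. Epha1 had -0.45 ± 0.18 (edgeR adjusted p = 0.0973), with 4 of 6 samples lower. The differences of Efnb1, Efnb2, Epha2, Epha4 and Epha7 lay between -0.08 and 0.13, and their edgeR adjusted p between 0.49 and 0.914. Ribosomal protein genes took less of the UMIs of the positive class in 6 of 6 samples, by 0.4 to 2.38 percentage points, and their part in these differences was not tested.

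When nuclei with Ascl2, Axin2 or Smoc2 took the place of those with Lgr5, 15993 nuclei were positive (45.7%, against 23.3% in cluster 8 and 48.9% in cluster 11), with the same limit, and edgeR called 15.3% of 14881 genes, 6.05% as higher and 9.25% as lower. Ephb2 (0.18 ± 0.04, edgeR adjusted p = 0.000803) and Ephb4 (0.32 ± 0.07, 0.000187) were then called higher, and Efna1 (-0.51 ± 0.09, 2.79e-06), Efnb2 (-0.24 ± 0.07, 0.00445) and Epha4 (-0.28 ± 0.10, 0.025) lower. With this class the receptors Ephb2 and Ephb4 were thus called higher, and the ligands Efna1 and Efnb2 lower together with the receptor Epha4. No other scaling, depth or set of samples was run for this class. Ribosomal protein genes took less of the UMIs of its positive class in 6 of 6 samples, with differences of -2.63 to -0.334 percentage points. Their part in these calls was not tested. Epha4 had the opposite sign in the Lgr5 split (0.13 ± 0.10, not called).

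The list of crypt genes is mostly Wnt targets and also holds Olfm4, known for its control by Notch. Of these genes 11 were tested in the Lgr5 split, where Lgr5 itself was left out of the fit. Of the 11, 6 were called higher and 0 lower: Smoc2 (0.46 ± 0.05), Axin2 (0.32 ± 0.07), Rnf43 (0.31 ± 0.05), Myb (0.30 ± 0.06), Znrf3 (0.23 ± 0.05) and Slc12a2 (0.23 ± 0.05). The median difference over the 11 tested was 0.23, against -0.01 over all genes tested and 0.02 over the members. Of 23 partners that act below the receptors 2 were called, a share no larger than the 9.18% of all genes. Anks1, an adaptor that binds EphA receptors, was called higher (0.18 ± 0.06, edgeR adjusted p = 0.0247) and Pard6b, a polarity protein, lower (-0.41 ± 0.13, 0.0281). Of the other 12 family genes 4 passed the filter on low counts and 0 were called, with medians of -0.13 for this list and 0.04 for the partners.

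Nuclei were also divided by at least 1 UMI of the enterocyte genes Alpi, Apoa1, Apoa4, Fabp2 or Sis after thinning, which made 16975 (48.5%) positive. The positive share was 89.3% in QCM replicate 1 and 29.0% to 50.0% in the other samples. It was 78.2% in the enterocyte-like cluster 8, but 46.1% in the tuft-like cluster 11 and 45.6% in the enteroendocrine-like cluster 9, close to the share over all nuclei. RNA free in the droplets was not estimated for these genes either, and the values describe only nuclei with and without such a UMI, not enterocytes against other cells. Here edgeR called 4.32% of 15017 genes, 3.34% as higher and 0.972% as lower in the positive class (502 and 146 genes, but 217 and 306 with library size alone), and of the members it called Efna1 alone, as higher (0.30 ± 0.09, adjusted p = 0.045). Efna1 was higher in 4 of 6 samples: positive nuclei held 47.1 and 40.6 CPM in QCM replicates 2 and 3 against 39.6 and 33.9 CPM, and 28.3 and 41.8 CPM in SCM replicates 2 and 3 against 22.9 and 33.0 CPM. In QCM replicate 1 it was lower (34.3 against 42.0 CPM), and in SCM replicate 1 there were 0 UMIs in the positive and 6 in the negative class. The call was lost in 9 of the 11 alternatives that gave an adjusted p, among them those without QCM replicate 2 (edgeR adjusted p = 0.146), QCM replicate 3 (0.258), SCM replicate 2 (0.146) and SCM replicate 3 (0.299).

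Ephb2 was lower in the positive class in 6 of 6 samples, at 312 ± 109 against 385 ± 79.9 CPM (SD, n = 6), but the fitted difference of -0.16 ± 0.07 did not pass the threshold (edgeR adjusted p = 0.23). With QCM replicate 1 omitted it was called (-0.14, edgeR adjusted p = 0.00116), and the other 11 alternatives, from -0.223 to -0.141, did not call it. Efnb2 had 0.19 ± 0.07 (edgeR adjusted p = 0.141) and Ephb4 -0.16 ± 0.08 (0.302). Without single samples, Efnb2 ran from 0.163 to 0.2 and Ephb4 from -0.209 to -0.0313. For Ephb3, Efnb1, Epha1, Epha2, Epha4 and Epha7 the differences lay between -0.15 and 0.19, with edgeR adjusted p between 0.519 and 0.985. The positive class had the higher ribosomal share in 6 of 6 samples, by 0.137 to 4.72 percentage points, and its part was not tested.

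**Figure D3:**
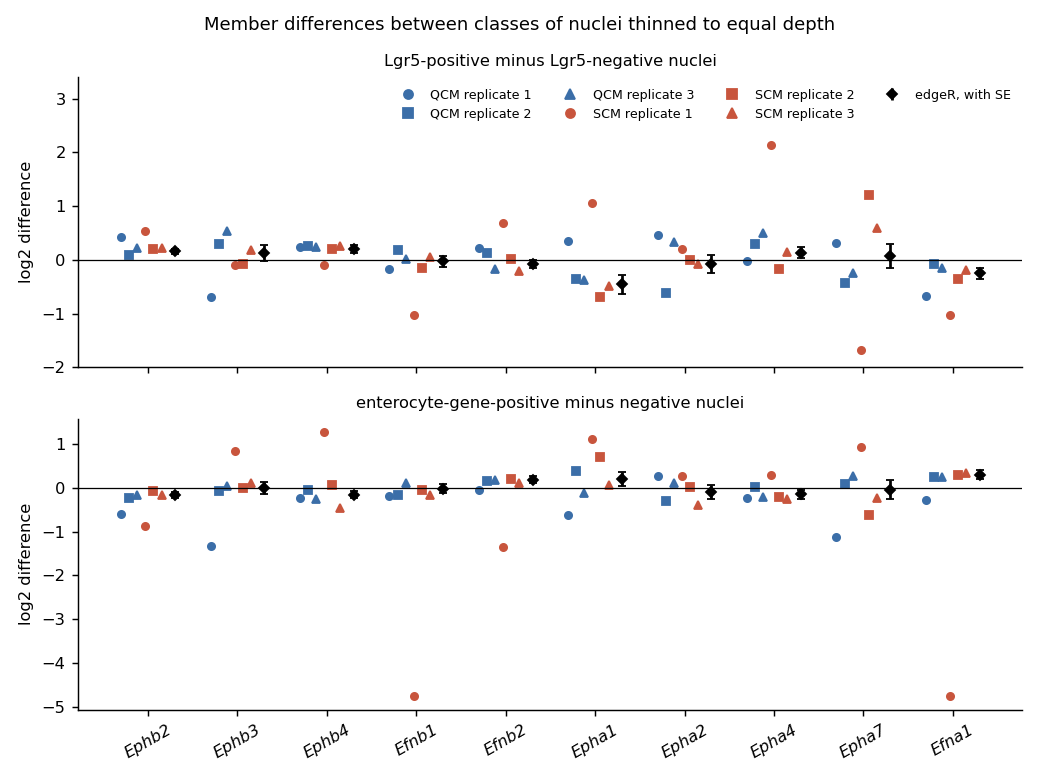
Log2 difference of each member between positive and negative nuclei after thinning to 1000 UMIs, for the Lgr5 split (top) and the enterocyte split (bottom). Coloured points are the 6 samples, as log2 of CPM + 1, and black diamonds the edgeR estimate with its SE. Ephb2 lies above 0 in all 6 samples at the top and below 0 in all 6 at the bottom; the 2 points at -4.76 are Efnb1 and Efna1 in SCM replicate 1, where the positive class had 0 UMIs.

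The comparison of the media asks how secretions of senescent fibroblasts act on the organoids. Summed over all nuclei of a sample, Epha4 was the only member whose groups did not overlap. It stood at 14.4, 29.7 and 24.6 CPM in QCM replicates 1, 2 and 3 and at 31.2, 84.1 and 41.8 CPM in SCM replicates 1, 2 and 3. Every SCM sample was above every QCM sample, with SCM replicate 2 far above the rest. In such sums, more nuclei of a kind and more RNA per nucleus cannot be told apart. Of 19046 genes tested, 4.99% were apart in this direction and 2.09% in the other. The fitted difference was 1.07 ± 0.37 on the log2 scale (edgeR adjusted p = 0.927) and did not pass the threshold, and 15 alternatives gave 0.57 to 1.34 with adjusted p between 0.406 and 1.

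No other member came closer. edgeR called 0 of the 10 members and 0% of all genes tested. At an unadjusted p under 0.05 it had 866 genes (4.55%, or 1.46% counting those higher in SCM), and Epha4 was the 1 member among them. DESeq2 called 21 genes (0.11%), and no member was among them. Leaving out SCM replicate 2 brought the difference of Epha4 to 0.57 and leaving out cluster 7 to 0.76. With the shared barcodes left out of SCM replicate 1 it stayed at 1.07. With each nucleus weighted equally, Epha4 was 11.6, 26.1 and 22.0 CPM in QCM and 24.1, 57.8 and 36.1 CPM in SCM, so that SCM replicate 1 fell below QCM replicate 2 and the groups overlapped (two-sided exact permutation p = 0.2, where 3 against 3 cannot go below 0.1). In SCM replicate 2, the 204 nuclei of cluster 7 were 4.06% of the nuclei and gave 16.4% of all UMIs and 50.2% of the Epha4 UMIs.

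**Figure D4:**
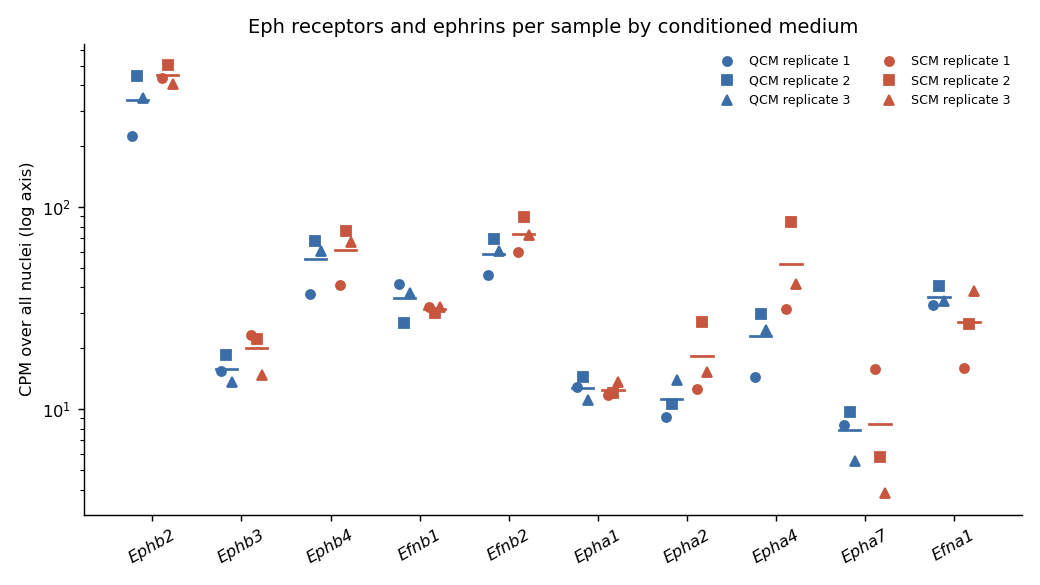
Level of each member in each sample over all nuclei, in CPM on a log axis. Points are the 3 samples per medium and lines their means. Only the groups of Epha4 are apart, with SCM replicate 2 at 84.1 CPM.

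Epha2 stood at 9.19, 10.6 and 13.9 CPM in QCM and at 12.5, 26.9 and 15.3 CPM in SCM. The groups overlapped, and SCM replicate 2 was again the highest. The difference of 0.56 ± 0.31 (edgeR adjusted p = 0.927) became 0.18 without that sample and 0.22 without cluster 7. Ephb2 was 224, 443 and 347 CPM in QCM and 436, 502 and 408 CPM in SCM, a difference of 0.28 ± 0.22 (edgeR adjusted p = 0.929), with QCM replicate 2 above 2 of the SCM samples. Efna1, at 32.7, 40.6 and 34.5 CPM in QCM, was 16.0, 26.4 and 38.2 CPM in SCM (-0.54 ± 0.31, edgeR adjusted p = 0.927). The difference of Ephb2 ran from 0.144 (QCM replicate 1 omitted) to 0.439 (QCM replicate 2 omitted), and that of Efna1 from -0.939 (SCM replicate 3 omitted) to -0.281 (SCM replicate 1 omitted).

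The other 6 members overlapped as well. Efnb2 was 58.8 ± 11.6 CPM in QCM and 73.7 ± 14.6 in SCM (SD, n = 3 each), Ephb3 15.8 ± 2.44 and 20.1 ± 4.67, and Ephb4 55.3 ± 16.0 and 61.5 ± 18.0. Efnb1 was 35.3 ± 7.77 and 31.4 ± 1.17 CPM, Epha1 12.8 ± 1.62 and 12.5 ± 1.03, and Epha7 7.85 ± 2.12 and 8.46 ± 6.36. Their fitted differences ran from -0.36 ± 0.26 for Efnb1 to 0.18 ± 0.19 for Efnb2, each within 2 SE of 0. Single samples moved many of these values by more than 1.5 times. Efnb1 was -0.0765 when QCM replicate 1 was omitted and -0.581 when QCM replicate 2 was, Efnb2 0.0402 with SCM replicate 2 omitted and 0.327 with SCM replicate 1 omitted. Ephb3 ranged from 0.0278 (QCM replicate 3 omitted) to 0.314 (SCM replicate 3 omitted) and Epha1 from -0.324 (QCM replicate 3 omitted) to -0.0596 (QCM replicate 1 omitted). The ephrins Efnb1 and Efna1 and the receptors Epha1 and Epha7 had estimates below 0 and the other 6 members above 0, with a median of 0.10 over the members and -0.01 over all genes tested. With library size alone the median of all genes moved to 0.14. The direction of Ephb4 and of Epha7 turned when single samples were left out, and that of Epha7 also with library size alone, without the shared barcodes and with equal weights.

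The wider family and its partners gave no call either. Of the 12 other Eph and ephrin genes 9 were tested and 0 called, 2 with estimates above 0, and those with the smallest p were Efna5 (1.14 ± 0.61) and Efna3 (-0.88 ± 0.49). Of the 23 partners 0 were called and 18 had estimates above 0, with Acp1 (-0.62 ± 0.31) and Pard6b (0.32 ± 0.18) at the smallest p. Grip1, whose course over clusters was like that of Epha4 in counts summed over samples, had 1.40 ± 0.78. Of the 12 crypt genes 0 were called and 10 had estimates above 0, with Cd44 (0.94 ± 0.24, edgeR adjusted p = 0.927) and Rnf43 (0.49 ± 0.23) at the smallest p. The medians were -0.39, 0.12 and 0.17 for these lists.

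To set nuclei of the same cluster side by side, the media were compared within each cluster. This does not fix the mix inside a cluster. In cluster 0, for example, the Lgr5-positive share after thinning ran from 18.4% to 54.2% between samples. More nuclei of a kind and more RNA per nucleus cannot be told apart in these sums either. Clusters 0 to 12 had enough samples. In them edgeR called 0 members and 0% of the 130109 gene and cluster tests, and the smallest adjusted p of a member was 0.494, for Epha4 in cluster 4. DESeq2 called 39 of these tests, none of them on a member, and at an unadjusted edgeR p under 0.05 there were 7490 (5.76%). Epha4 was tested in 11 clusters, and its estimate was above 0 in 11 of 11, from 0.28 in the enterocyte-like cluster 8 to 1.31 in the tuft-like cluster 11. In 6 of them (clusters 0, 1, 3, 4, 5 and 11) the unadjusted p was under 0.05, against 1.2% of all tests in this direction and 0.568%, 0.835%, 1.28%, 1.96%, 0.648% and 1.37% within these clusters. With library size alone Epha4 passed in 7 clusters, and the share of all tests was 1.94%, or 0.714% to 4.55% within those clusters. Without single samples, its main estimates ran from 0.49 to 0.887 in cluster 0 and 0.859 to 1.28 in cluster 1. They ran from 0.433 to 0.993 in cluster 3, 0.648 to 1.32 in cluster 4 and 0.928 to 1.5 in cluster 5. Cluster 2 gave 0.315 to 0.909, cluster 6 0.474 to 1.1, cluster 9 0.459 to 1.25 and cluster 11 1.2 to 1.43. Clusters 9 and 11 could not be fitted without SCM replicate 2 or 3. The clusters come from the same samples (cluster 11 from 5 of the 6) and are not independent of each other. In CPM, the media overlapped in clusters 0, 2, 6, 7, 8 and 9 and were apart in clusters 1, 3, 4, 5 and 11. The share of all genes apart in a cluster was not counted. In cluster 0, SCM replicate 1 was the lowest sample, at 8.98 CPM from 1 UMI in 19 nuclei, against 14.6, 26.5 and 23.6 CPM in QCM. The low-count filter dropped Epha4 in clusters 10 and 12. In cluster 7, where Epha4 was most abundant, the difference was 0.91 ± 0.51 (edgeR adjusted p = 0.52), and 0.0854 without SCM replicate 2.

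**Figure D5:**
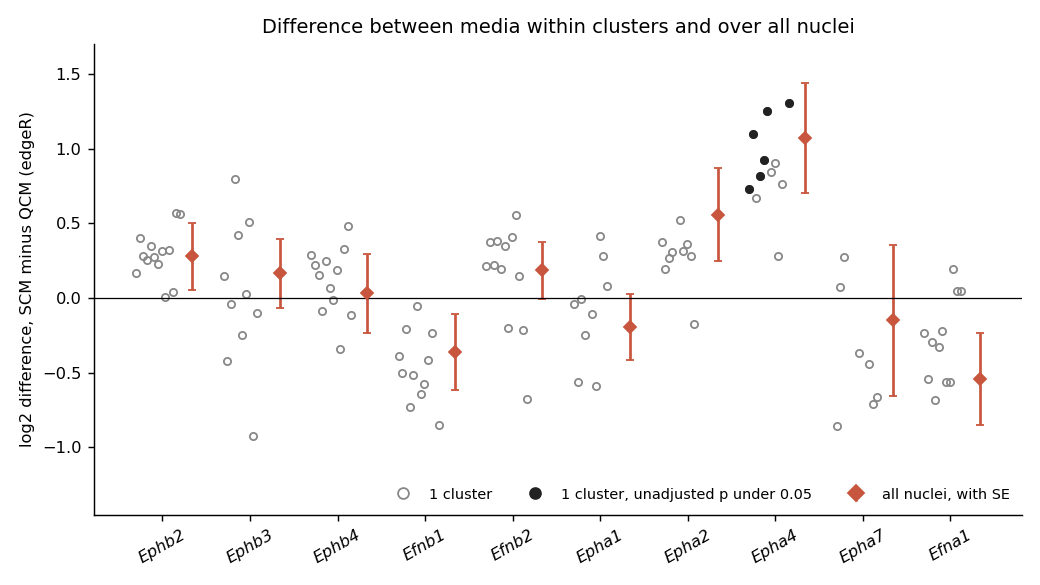
Log2 difference between the media (SCM minus QCM, edgeR) for each member, with 1 circle per cluster and a diamond with its SE for all nuclei. Filled circles have an unadjusted p under 0.05, which only Epha4 reached, in 6 of 11 clusters, and no adjusted p was under 0.05.

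Ephb2 had estimates above 0 in 13 of 13 clusters (0.00321 to 0.57) and Efnb1 below 0 in the 11 of 11 where it was tested (-0.85 to -0.06), but none reached an unadjusted p under 0.05. The low-count filter dropped Efnb1 in clusters 10 and 12. In cluster 10 it went the other way, at 22.4, 24.1 and 22.1 CPM in QCM and 40.9 and 34.8 CPM in SCM replicates 2 and 3, from 6 to 10 UMIs each. How many of all genes kept a single sign over the clusters was not counted. Epha2 was above 0 in 8 of 9 clusters, Efnb2 in 9 of 12, Ephb4 in 8 of 12 and Ephb3 in 5 of 10. Efna1 was below 0 in 8 of 11, Epha1 in 6 of 9 and Epha7 in 5 of 7. In cluster 7, Epha2 differed by 0.36 ± 0.41, Efnb2 by 0.41 ± 0.34 and Efnb1 by -0.58 ± 0.34.

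With 9 clusters that had at least 10 nuclei in every sample given equal weight, no member reached the smallest exact p of 0.1. Epha4 was then 16.7, 34.7 and 28.8 CPM in QCM and 26.7, 73.7 and 43.2 CPM in SCM, a mean log2 difference of 0.78 with overlapping groups (two-sided exact permutation p = 0.3). Efnb2 was 49.2, 76.7 and 64.6 against 67.0, 95.4 and 79.8 CPM (p = 0.2 by the exact test), and with weights by the share of all nuclei its groups came apart at the smallest p of that test, 0.1. Both weightings were run for the members alone. The share of all genes that come apart in this way is therefore not known, and nothing is concluded from it. Whether the difference between Lgr5-positive and Lgr5-negative nuclei depended on the medium was tested as an interaction. edgeR called 3 of 14427 genes (0.0208%) and 0 of the 10 members. The member with the smallest p was Epha7 (1.08 ± 0.47, edgeR adjusted p = 1.00).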

How the data were processed

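Single-nucleus RNA-seq was made from 3 QCM and 3 SCM samples. The deposited counts are whole UMI counts per gene and nucleus, which the authors made with Cell Ranger on mm10 (version 2.1.1 in the submitters' processing notes) and kept for nuclei that passed their filters on mitochondrial share, reads and genes. The clusters are theirs, from Leiden clustering of integrated data. No doublet step was applied here. Counts were summed per sample, per sample and cluster (at least 10 nuclei), or per sample and class after thinning to 1000 UMIs. Sums were compared with edgeR 4.0.16 in R 4.3.3 (quasi-likelihood test, TMM scaling, low-count filter, sample as a block in the splits of nuclei, Benjamini-Hochberg adjustment over all genes), with DESeq2 1.42.0 as an alternative. Scripts were tested on simulated data. Of 2-fold changes edgeR recovered 16% for the media over all nuclei, 21% for the media within cluster 7 and 81% in the Lgr5 split. Of 4-fold changes it recovered 72%, 86% and 96%, and false calls numbered 8, 2 and 6. A gene not called between the media may therefore still differ by 2-fold. CPM are counts per 1000000 of a sample's or class's UMIs. Intronic reads can enter nuclear counts, and genes that overlap or resemble each other can share UMIs.

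Cluster names needed at least 3 markers at 2 times the other nuclei and 5 CPM. Likeness used genes with at least 500 UMIs. The named genes were the 10 members, the genes called and those with the smallest p on each list, and the 3 genes most like each member, of which 1 is not reported here. The members, lists and rules were chosen with earlier results of these data known. Alternatives were other scalings, filters, depths, classes and weights, and leaving out each sample. Equal weights per nucleus and leaving out shared barcodes, cluster 7, or clusters 1 and 4 were added after seeing the data. Promoters came from RefSeq (GRCm38.p6), where all 10 members were matched. Gene positions are those of GRCm38, and 31244 of 31319 identifiers matched a symbol.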

Additional observations from a re-analysis of the deposited data

How the results depend on the processing

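No member was called between the media, for all nuclei or within clusters, under the alternatives run with edgeR or DESeq2. The smallest adjusted p was 0.0656, within clusters with no low-count filter, and DESeq2 gave none for 41 of 105 tests of members within clusters. For all nuclei, edgeR's count of 0 genes became 21 with DESeq2 and stayed 0 when any sample was left out. Within clusters, the count of 0 became 39 with DESeq2, 5 with library size alone, 3135 with no low-count filter, 264 with the replicate block and 0 to 32 when a sample was left out (32 without QCM replicate 2). Samples with the same number deviated together by r = 0.364, 0.462 and -0.088, and samples with different numbers by r between -0.463 and 0.164. The numbers were not taken as pairs in the main fits. Whether samples with the same number shared a batch was not tested. The replicate block called 0 genes in all nuclei. The count of 1324 in the Lgr5 split was 553 with DESeq2, 549 at 500 UMIs, 0 with no sample block, 2277 with the class by Ascl2, Axin2 or Smoc2, and 863 to 1301 without single samples (863 without QCM replicate 3). The count of 648 in the enterocyte split was 62 with DESeq2, 312 at 500 and 177 at 2000 UMIs, 0 with no sample block, and 167 to 982 without single samples (lowest when QCM replicate 3 and highest when QCM replicate 1 was omitted). The interaction count of 3 became 0 with DESeq2 and 0 at 500 UMIs. The causes were not tested.

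Direction turned for these log2 differences. Between the media, Ephb4 was -0.00944 with the replicate block, and Epha7 was 0.0371 with library size alone, 0.0916 without the shared barcodes and 0.274 with equal weights per nucleus. In the Lgr5 split, Efnb1 was 0.0212 with library size alone, Efnb2 0.17 and Epha4 -0.15 at 500 UMIs, Epha4 -0.285 with the other class, Epha2 0.0029 and Epha7 -0.0598 with no sample block, and Epha7 -0.0288 without clusters 1 and 4. In the enterocyte split, Efnb1 was 0.0803 at 500 UMIs, 0.135 at 2000 UMIs and 0.0178 with no sample block, and Epha7 was 0.0718 at 500 and 0.0809 at 2000 UMIs. Without single samples, the media differed by -0.13 to 0.257 for Ephb4, -0.862 to 0.186 for Epha7, -0.106 to 0.775 for Epha4 in cluster 8 and -0.218 to 0.642 for Epha2 in cluster 7. The Lgr5 split then gave -0.0865 to 0.00351 for Efnb1, -0.179 to 0.0409 for Epha2 and -0.169 to 0.369 for Epha7. The enterocyte split gave -0.0781 to 0.0618 for Ephb3, -0.0967 to 0.0175 for Efnb1, -0.19 to 0.0339 for Epha2 and -0.152 to 0.0439 for Epha7. The Ephb2 call of the Lgr5 split was also lost with no low-count filter (edgeR adjusted p = 0.143), at 500 UMIs (0.119) and with no sample block (1). Epha7, with 976 UMIs in all, was the shallowest member.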

Other observations

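Among the other family genes, Epha6, which encodes an EphA receptor, varied most between samples. It stood at 10.5, 2.26 and 31.5 CPM in QCM replicates 1, 2 and 3 and at 63.4, 5.63 and 3.69 CPM in SCM replicates 1, 2 and 3, so that the groups overlapped and both media held low and high samples. Its highest mean was in the unnamed cluster 4, at 70.2 ± 87.3 CPM (SD, n = 6), where it ranged from 16.0 to 238 CPM and was the top cluster in 5 of 6 samples. That cluster held 36.5% of the nuclei of SCM replicate 1 and 12.4% of those of QCM replicate 3, the samples with the most Epha6, and 1.99% to 6.46% in the other 4. Its part in the spread of Epha6 was not tested. Leading genes of cluster 4 were mostly predicted genes, such as Gm10800 and Gm10801. Epha6 spans 952 kb, the longest of the 22 family genes, and the part of gene length in its counts was not tested. Between the media Epha6 differed by 0.45 ± 1.18 on the log2 scale (edgeR adjusted p = 0.97).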
